A study of Mus musculus with 12 samples.

Results

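Genes of the ATF4 pathway and the integrated stress response were measured by RNA sequencing in bone marrow-derived macrophages (BMDMs) of WT and AMPKβ1-/- mice. The 10 genes, taken by name, were Atf4, Ddit3, Asns, Psat1, Phgdh, Chac1, Shmt2, Mthfd2, Ppp1r15a and Eif2ak3. They were 10 of 12960 genes in the count table, and 10 of 10 passed the filter on low counts that left 10822 genes for testing, Chac1 at the lowest counts. Marrow cells of either genotype were differentiated for a week with L929 medium, a source of the macrophage growth factor M-CSF, and received vehicle (0.1% DMSO) or 10 µM PF-06409577 (PF), an activator of AMPK complexes that contain the β1 subunit, for 6 h. Each of the 4 groups (WT vehicle, WT PF, AMPKβ1-/- vehicle and AMPKβ1-/- PF) had 3 libraries of total RNA. AMPKβ1-/- mice lack the subunit in the whole body, so BMDMs of this genotype also developed without it. The age and sex of the marrow donors were not given in the sources used here. The sources do not say whether the 3 libraries of a group came from separate mice or cultures, and p values therefore measure the spread between these libraries, which may be technical.

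The integrated stress response begins with kinases that phosphorylate the α subunit of the translation factor eIF2. PERK, the product of Eif2ak3, responds to unfolded protein in the endoplasmic reticulum, and its relatives respond to amino acid shortage (GCN2), double-stranded RNA (PKR) and heme shortage or mitochondrial stress (HRI). Phosphorylated eIF2 blocks its own exchange factor eIF2B, so most protein synthesis slows while the mRNA of the transcription factor ATF4 is translated better. ATF4 then raises genes for amino acid synthesis, transport and tRNA charging, together with CHOP (Ddit3) and with GADD34 (Ppp1r15a), which directs a phosphatase back to eIF2. Much of this control acts on translation, and mRNA levels do not measure it.

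ATF4 and its C/EBP partners bind a composite element whose core reads TGATGNAA, or TTNCATCA on the other strand. The 250 bases before each RefSeq start site (GRCm38.p6) were searched for this core on both strands, and it was found for 2 of the 10 genes, Asns and Chac1. Over all promoters of the same length, 1134 of 32851 windows (3.45%) held it, in 1056 of 27025 genes (3.91%). The windows of these 2 genes are printed 5′ to 3′ on the strand of the gene because they are the members' windows with a match, which stands in capitals.

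Asns (chr6:7693210-7693459, minus strand): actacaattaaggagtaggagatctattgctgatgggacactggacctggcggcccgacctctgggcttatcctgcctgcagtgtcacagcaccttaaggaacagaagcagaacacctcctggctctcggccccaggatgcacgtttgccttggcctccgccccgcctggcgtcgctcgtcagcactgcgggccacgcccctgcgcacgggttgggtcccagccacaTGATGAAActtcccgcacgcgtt

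Chac1 (chr2:119350992-119351241, plus strand): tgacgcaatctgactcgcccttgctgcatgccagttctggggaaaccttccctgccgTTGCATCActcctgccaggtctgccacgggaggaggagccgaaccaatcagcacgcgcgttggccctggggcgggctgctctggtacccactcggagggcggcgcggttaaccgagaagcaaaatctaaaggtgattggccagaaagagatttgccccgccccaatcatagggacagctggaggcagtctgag

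The match in Asns read TGATGAAA on the strand of the gene and began at base -23 from the start site, and that of Chac1 read TTGCATCA, the core of the opposite strand, and began at base -193. GENCODE M21 places the start of both genes inside these windows, upstream of the RefSeq start. The Asns match lies downstream of its GENCODE start, within the annotated gene, and the Chac1 match lies upstream of its GENCODE start. A match is a description of the letters, and the other 8 genes may hold other forms of the element or hold it elsewhere.

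Libraries held 8935609 to 14358180 counts assigned to genes. Levels are CPM, a gene's counts scaled to a common library total, with TMM as the correction for differences in library composition, and are given per library or as mean ± SD over 3 libraries. Prkab1, which encodes AMPKβ1, lay between 37.3 and 45.3 CPM in the WT libraries and between 6.04 and 9.42 CPM in the AMPKβ1-/- libraries (log2 fold change -2.57 with vehicle, edgeR adjusted p = 8.85e-09), as the genotype labels state. The macrophage markers Adgre1, Csf1r, Cd68, Itgam, Mertk, Fcgr1 and Lyz2 were present in all libraries and summed to 24373 to 28482 CPM. Of 7 granulocyte markers 4 were in the table, summing to at most 1.22 CPM, of 4 dendritic cell markers 3 were in it, summing to at most 1.28 CPM, and of 7 lymphoid markers 0 were in it. The 5 fibroblast markers summed to 2.02 to 8.66 CPM in AMPKβ1-/- vehicle libraries and to at most 2.12 CPM in the others, and their part in the results was not tested. In bulk RNA, fewer cells that express a gene and less of its RNA per cell cannot be told apart.

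Libraries differed in how the levels of genes moved with their GC content. The slope was taken from log2 CPM centred on each gene's mean over the 12 libraries, so its sign is relative to the average library. Per 10 percentage points of GC, it was 0.363 to 0.733 in WT vehicle and -0.052 to 0.373 in WT PF libraries. It was -0.362 to -0.106 in AMPKβ1-/- vehicle and -0.521 to -0.337 in AMPKβ1-/- PF libraries. It thus moved with genotype and was lower on average with PF in both genotypes (mean 0.544 and 0.163 in WT, -0.272 and -0.436 in AMPKβ1-/-), where the ranges overlapped slightly. Many genes below are therefore also given after a per-library correction for GC content and length (the GC trend). Where no such value is given, the size may still have changed. Whether the trend is technical was not tested, and it runs along genotype and treatment. Its removal may thus also remove real differences between the groups.

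In WT BMDMs with PF, 1 of the 10 genes, Mthfd2, passed the test (edgeR quasi-likelihood, Benjamini-Hochberg adjusted p below 0.05), and 15.9% of all tested genes did so in either direction. None of the 10 met the study's threshold for a differentially expressed gene, which also asks for a log2 fold change beyond 0.8 and was met by 1.52% of all genes, and 5 of 10 had an unadjusted p below 0.05, as did 35.3% of all genes. The log2 fold change was above 0 for 8 of 10 genes against 50.7% of all genes, with a median of 0.21 against 0.0048. In all 3 WT PF libraries Atf4, Ddit3 and Mthfd2 were above, and Shmt2 below, each WT vehicle library, a pattern seen upward in 14.2% and downward in 18.1% of all genes. Scaling by library size alone shifted the median of all genes from 0.0048 to 0.086 (log2) and gave 4 of 10 genes higher with PF. It turned the split over all genes from 756 higher and 969 lower to 1045 higher and 587 lower.

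In AMPKβ1-/- BMDMs PF changed 0 of the 10 genes by edgeR, where 0.0554% of all genes passed. Also, 0 had an unadjusted p below 0.05 (4.98% of all genes) and 0 passed with DESeq2 (0.461% of all genes). Their median log2 fold change was -0.046 (range -0.41 to 0.057). For each of the 10 genes the PF and vehicle libraries of this genotype overlapped, whereas PF libraries lay above in 8.21% and below in 6.28% of all genes. The difference between the genotypes in the response to PF (WT minus AMPKβ1-/-) also passed for 0 of the 10 genes with edgeR and with DESeq2, where 0.416% of all genes passed with edgeR and 1.87% with DESeq2. Its value was above 0 for 9 of 10 genes and for 49.8% of all genes, with a median of 0.22 against -0.0023 over all genes, and 2 of 10 had an unadjusted p below 0.05, against 14.3% of all genes. The responses of the 2 genotypes were therefore not shown to differ for these genes without removal of the GC trend.

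The genotypes differed more than the treatments did. With vehicle, 1 gene (Eif2ak3) was higher and 6 genes (Ddit3, Asns, Psat1, Phgdh, Shmt2 and Ppp1r15a) were lower in AMPKβ1-/- than in WT BMDMs, 7 of 10 in all against 59.7% of all tested genes. The 6 lower genes compare with 30% of all genes called lower. With PF, 9 of 10 genes were lower in AMPKβ1-/- than in WT BMDMs, where 47.1% of all genes passed in either direction and 22.9% were lower, and Eif2ak3 was the gene that did not pass. Libraries of AMPKβ1-/- lay below every WT library for 7 of 10 genes with vehicle (32% of all genes) and for 8 of 10 with PF (30% of all genes). The median log2 fold change was -0.38 with vehicle and -0.59 with PF, against -0.026 and -0.0012 over all genes. These comparisons share libraries with each other and with those of PF against vehicle, so they are not independent.

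The split of the genotype calls rested in part on how the libraries were scaled. Scaling by library size alone raised the median of all genes from -0.026 to 0.18 with vehicle and from -0.0012 to 0.15 with PF. It left 1 higher and 2 lower members with vehicle (all genes: 4296 higher and 1600 lower, against 3216 and 3249 with TMM). It left 1 higher and 8 lower with PF (all genes: 3444 and 1359, against 2613 and 2481). With the GC trend removed, 2 members were higher and 3 lower with vehicle, against 16.1% and 22.3% of all genes in the same fit. With PF 1 was then higher and 8 lower, against 18.1% and 23.8% of all genes.

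**Figure D1:**
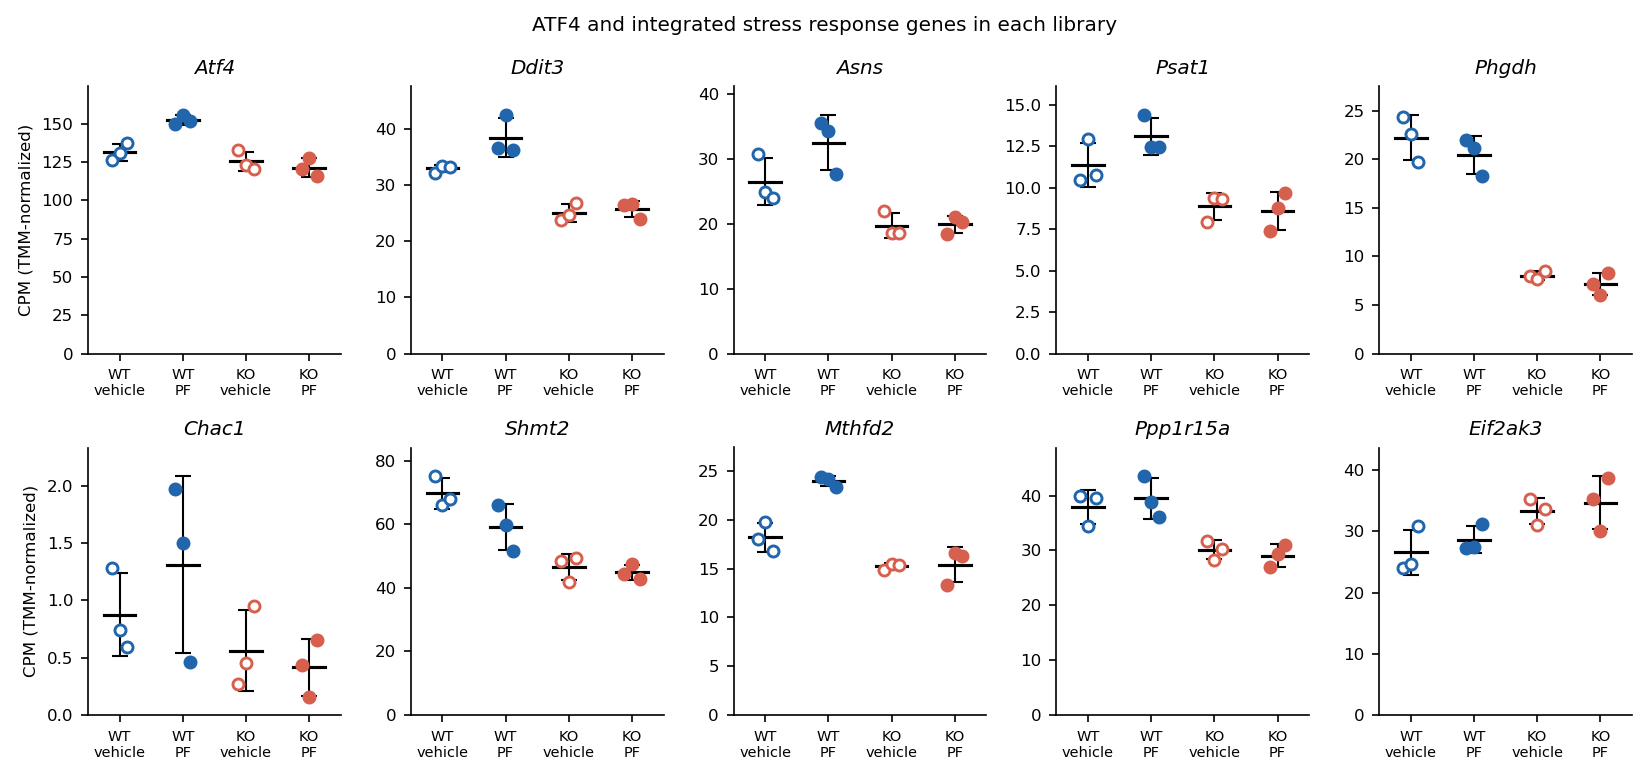
CPM (TMM-scaled) of the 10 genes in each library. Points are libraries (open, vehicle; filled, PF; blue, WT; red, AMPKβ1-/- labelled KO), bars are means and whiskers SD of 3 libraries; each y axis starts at 0. The AMPKβ1-/- libraries of Phgdh lie between 6.04 and 8.48 CPM and its WT libraries between 18.2 and 24.4 CPM.

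Eif2ak3 (chr6:70844515-70905245, plus strand, GRCm38) encodes PERK, the kinase that starts the response from the endoplasmic reticulum. It measured 24.05, 24.7 and 30.8 CPM in WT vehicle, 27.3, 27.4 and 31.1 in WT PF, 35.3, 31.0 and 33.7 in AMPKβ1-/- vehicle and 35.3, 30.1 and 38.7 in AMPKβ1-/- PF libraries. All AMPKβ1-/- vehicle libraries were above the WT vehicle libraries (as for 30.9% of all genes), by little in 1 case, and the PF libraries of the genotypes overlapped. It was the member with the opposite sign in the genotype comparison. Compared with WT, AMPKβ1-/- BMDMs showed a log2 fold change of 0.33 ± 0.12 (SE, edgeR adjusted p = 0.0299) with vehicle and 0.27 ± 0.12 (adjusted p = 0.0724) with PF. With the GC trend removed both passed, at 0.44 (adjusted p = 0.00742) and 0.38 (adjusted p = 0.0131). The vehicle difference lost its call when WT vehicle library 1 or 2 or AMPKβ1-/- vehicle library 1 or 3 was left out (adjusted p = 0.114, 0.101, 0.0842 and 0.0689). For PF against vehicle its values were 0.11 in WT (95% interval -0.15 to 0.37) and 0.057 in AMPKβ1-/- BMDMs.

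Atf4 (chr15:80255184-80257541, plus strand) encodes the transcription factor itself, whose synthesis is set mainly at translation. Its level was 126, 131 and 137 CPM in WT vehicle and 149.6, 156 and 151 CPM in WT PF libraries. In AMPKβ1-/- BMDMs it was 132, 123 and 121 CPM with vehicle and 120.4, 128 and 116 CPM with PF. The WT PF libraries were the highest of the 12 and were separate from the rest, while the other 3 groups overlapped. With PF the log2 fold change was 0.21 ± 0.072 in WT (95% interval 0.061 to 0.37, edgeR adjusted p = 0.0544), just short of the threshold, and -0.047 ± 0.072 in AMPKβ1-/- BMDMs (adjusted p = 0.982). The difference between these responses was 0.26 ± 0.10 (adjusted p = 0.272).

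With the GC trend removed, the response of Atf4 to PF in WT became 0.40 ± 0.066 (adjusted p = 0.00117), and the difference between the genotypes in that response became 0.42 (adjusted p = 0.0355), the 1 member to pass there. The response in WT also passed with DESeq2's size factors (adjusted p = 0.0418), with library size alone (0.0193), with DESeq2 (0.02), and without WT PF library 1 (0.0421) or AMPKβ1-/- vehicle library 1 (0.0441). Against WT with vehicle, Atf4 in AMPKβ1-/- BMDMs was at -0.067 (adjusted p = 0.435) but turned to 0.25 (adjusted p = 0.00763) with the GC trend removed and to 0.14 with library size alone, so its direction there was not settled. With PF it was lower in AMPKβ1-/- BMDMs (-0.33 ± 0.072, adjusted p = 0.0019), and at -0.17 (adjusted p = 0.0451) with the GC trend removed.

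Ddit3 (chr10:127290774-127296288, plus strand, where the annotation lists a second, overlapping entry of the same name at chr10:127290829-127293753) encodes CHOP, a transcription factor that ATF4 induces and that promotes cell death under lasting stress. Its 3 WT vehicle libraries were at 32.2, 33.3 and 33.2 CPM and the WT PF libraries at 36.5, 42.5 and 36.2 CPM. AMPKβ1-/- libraries were at 23.7, 24.7 and 26.8 CPM with vehicle and 26.5, 26.5 and 23.98 CPM with PF. Every AMPKβ1-/- library lay below every WT library. The difference was -0.39 ± 0.098 (adjusted p = 0.003) with vehicle and -0.58 ± 0.096 (adjusted p = 0.000263) with PF. Without the GC trend the first fell short of the threshold, at -0.13 (adjusted p = 0.288), as it did with library size alone (-0.18, adjusted p = 0.12), and the second stood at -0.37 (adjusted p = 0.00314). PF gave 0.22 ± 0.096 in WT (adjusted p = 0.113), which passed at 0.32 (adjusted p = 0.0357) with the trend removed, and 0.036 in AMPKβ1-/- BMDMs.

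Ppp1r15a (chr7:45522916-45526268, minus strand) encodes GADD34, the feedback subunit that brings protein phosphatase to eIF2. WT vehicle libraries measured 40.0, 34.4 and 39.5 CPM and WT PF libraries 43.5, 38.9 and 36.1 CPM, against 31.8, 28.4 and 30.2 CPM in AMPKβ1-/- vehicle and 26.9, 29.4 and 31.0 CPM in AMPKβ1-/- PF libraries. The genotypes did not overlap under either treatment, and the treatments overlapped within each genotype. The difference between genotypes was -0.33 ± 0.10 (adjusted p = 0.0113) with vehicle and -0.44 ± 0.10 (adjusted p = 0.00262) with PF. The vehicle difference was close to 0 with the GC trend removed, at -0.064 (adjusted p = 0.56), and did not pass with library size alone (-0.12, adjusted p = 0.27) or without AMPKβ1-/- vehicle library 2 (adjusted p = 0.0577), whereas that with PF was -0.35 (adjusted p = 0.00225). The log2 fold change with PF in WT was 0.059 (95% interval -0.16 to 0.27). With the GC trend removed it was 0.26 (95% interval 0.096 to 0.43, edgeR adjusted p = 0.0535), just short of the threshold.

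Asns (chr6:7675169-7693254, minus strand) encodes asparagine synthetase, a classical ATF4 target and a member whose promoter window held the element core. It measured 30.7, 24.8 and 23.98 CPM in WT vehicle and 35.6, 34.3 and 27.6 CPM in WT PF libraries. AMPKβ1-/- libraries held 21.96, 18.6 and 18.6 CPM with vehicle and 18.5, 21.03 and 20.3 CPM with PF, below the WT libraries in every case. With PF the difference between genotypes was -0.70 ± 0.13 (adjusted p = 0.000514), and with vehicle it was -0.42 ± 0.13 (adjusted p = 0.0113). Removal of the GC trend left both, at -0.62 (adjusted p = 0.000823) and -0.46 (adjusted p = 0.00971). The vehicle difference did not pass without WT vehicle library 1 (adjusted p = 0.068), the highest of its group, or without AMPKβ1-/- vehicle library 2 (0.0515), or with library size alone (-0.21, adjusted p = 0.144). The response to PF in WT was 0.30 ± 0.13 (95% interval 0.025 to 0.56, adjusted p = 0.111), and that in AMPKβ1-/- BMDMs was 0.016. With the GC trend removed the response in WT was 0.19 (adjusted p = 0.396).

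Phgdh (chr3:98313170-98339990, minus strand), with the largest difference between genotypes among the 10 genes with vehicle, encodes phosphoglycerate dehydrogenase, the first enzyme of serine synthesis from a glycolytic intermediate. It measured 24.4, 22.6 and 19.7 CPM in WT vehicle and 21.9, 21.1 and 18.2 CPM in WT PF libraries, but 7.93, 7.63 and 8.48 CPM in AMPKβ1-/- vehicle and 7.14, 6.04 and 8.27 CPM in AMPKβ1-/- PF libraries. No AMPKβ1-/- library came near the WT range. The mean was 22.2 ± 2.36 CPM in WT and 8.01 ± 0.433 CPM in AMPKβ1-/- BMDMs with vehicle, a log2 fold change of -1.48 ± 0.14 (adjusted p = 9.59e-06), and with PF it was -1.52 ± 0.14 (adjusted p = 1.95e-06). It was the 1 member beyond the study's fold threshold with vehicle (1.76% of all genes were lower by that threshold), and 1 of 2 with PF, Chac1 being the other (2.06% of all genes). With the GC trend removed the values were -1.15 (adjusted p = 1.22e-05) and -1.27 (adjusted p = 9.21e-07), and Phgdh passed with vehicle in each of the 19 alternative settings, the only member that did so. PF left it at -0.12 in WT (95% interval -0.40 to 0.15) and -0.16 in AMPKβ1-/- BMDMs (95% interval -0.49 to 0.16).

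Psat1 (chr19:15904678-15947337, minus strand) encodes phosphoserine aminotransferase, which follows PHGDH in the pathway. WT libraries held 10.5, 12.9 and 10.7 CPM with vehicle and 14.4, 12.4 and 12.5 CPM with PF. AMPKβ1-/- libraries held 7.93, 9.39 and 9.33 CPM with vehicle and 7.40, 8.79 and 9.67 CPM with PF, again without overlap between genotypes. The difference was -0.60 ± 0.14 (adjusted p = 0.00337) with PF and -0.36 ± 0.15 (adjusted p = 0.0473) with vehicle. The latter was close to the threshold and did not pass in 15 of its 19 alternative settings (-0.15, adjusted p = 0.419, with library size alone), while with the GC trend removed it was -0.49 (adjusted p = 0.011). PF gave 0.20 ± 0.14 in WT (adjusted p = 0.318) and -0.046 in AMPKβ1-/- BMDMs. The value in WT was 0.047 (adjusted p = 0.881) with the GC trend removed.

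Mthfd2 and Shmt2 encode mitochondrial enzymes of one-carbon metabolism. Mthfd2 (chr6:83305691-83325908, minus strand), a methylenetetrahydrofolate dehydrogenase, rose with PF. Its WT vehicle libraries measured 18.1, 19.7 and 16.8 CPM and its WT PF libraries 24.3, 24.1 and 23.4 CPM, without overlap. The log2 fold change was 0.39 ± 0.11 (95% interval 0.16 to 0.63, adjusted p = 0.0295), from 18.2 ± 1.47 to 23.95 ± 0.51 CPM. AMPKβ1-/- libraries held 14.9, 15.4 and 15.4 CPM with vehicle and 13.3, 16.6 and 16.3 CPM with PF, all below WT and overlapping each other (0.018, 95% interval -0.23 to 0.26). The difference in response was 0.38 ± 0.16 (adjusted p = 0.308). The rise in WT stood close to the threshold and did not pass with the GC trend removed (0.31, adjusted p = 0.0734), when WT libraries alone were fitted (adjusted p = 0.0776), or without either of WT vehicle libraries 1 and 3 (0.0835 and 0.0972) or of WT PF libraries 2 and 3 (0.0873 and 0.0801). Between genotypes the log2 fold change of Mthfd2 was -0.63 ± 0.11 with PF (adjusted p = 0.0004) and -0.26 ± 0.11 with vehicle (adjusted p = 0.0634), and without the GC trend -0.54 and -0.26.

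Shmt2 (chr10:127517123-127522444, minus strand) encodes the mitochondrial serine hydroxymethyltransferase, which passes a carbon unit from serine to folate. It measured 75.1, 66.2 and 67.8 CPM in WT vehicle and 65.9, 59.9 and 51.6 CPM in WT PF libraries, the WT PF libraries being the lower ones. The log2 fold change of -0.24 ± 0.10 did not pass (adjusted p = 0.108) and was -0.025 with the GC trend removed. AMPKβ1-/- libraries measured 48.4, 41.9 and 49.3 CPM with vehicle and 44.4, 47.5 and 42.7 CPM with PF, below every WT library. The difference between genotypes was -0.59 ± 0.10 (adjusted p = 0.000275) with vehicle and -0.40 ± 0.10 (adjusted p = 0.00536) with PF. Neither passed with the GC trend removed (-0.18, adjusted p = 0.0607, and -0.15, adjusted p = 0.101). Shmt2 had the highest GC content of the 10 genes, 58.2%, and Psat1 the lowest, 48.4%.

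Chac1 (chr2:119351229-119354381, plus strand) encodes an enzyme that degrades glutathione and is a target of ATF4 and CHOP. It was hardly detected. The libraries held 12, 8 and 6 counts in WT vehicle, 23, 16 and 6 in WT PF, 3, 7 and 9 in AMPKβ1-/- vehicle and 5, 2 and 7 in AMPKβ1-/- PF, where a count of 0 would allow up to 3. The groups overlapped in every comparison. Its difference between genotypes with PF passed at -1.65 ± 0.59 (95% interval -2.91 to -0.39, adjusted p = 0.0317). It did not pass without WT PF library 1 or 2 or AMPKβ1-/- PF library 1 or 2 (adjusted p = 0.159, 0.0842, 0.0733 and 0.123), or with library size alone (-1.50, adjusted p = 0.0569). The log2 fold change with PF in WT had a 95% interval from -0.55 to 1.69, and a response was not detectable at this depth.

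**Figure D2:**
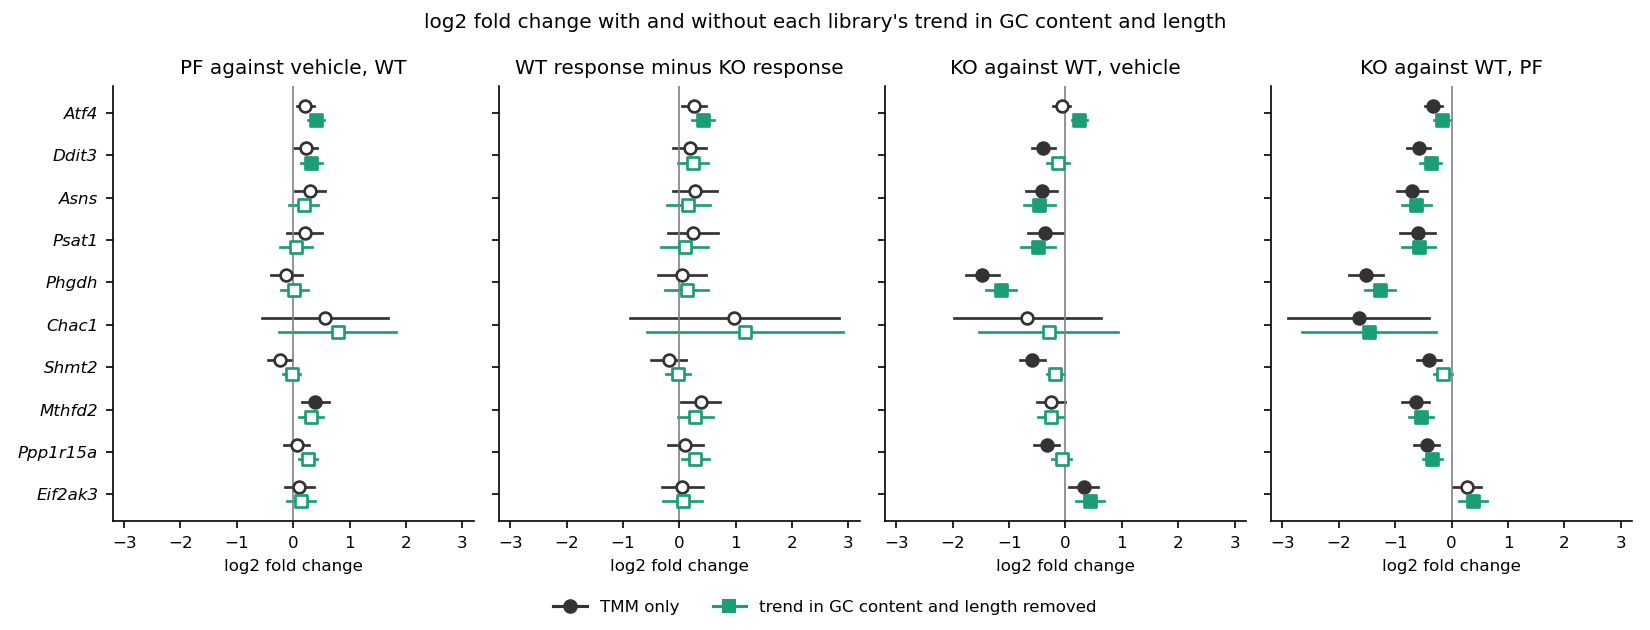
log2 fold changes (x axis) of the 10 genes with TMM alone (black circles) and after correction of each library for GC content and length (green squares), with 95% intervals. Filled symbols have an edgeR adjusted p below 0.05. Phgdh lies furthest from 0 in both genotype panels among genes other than Chac1, and Atf4 changes sides of 0 in the vehicle panel, from -0.067 to 0.25.

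**Figure D3:**
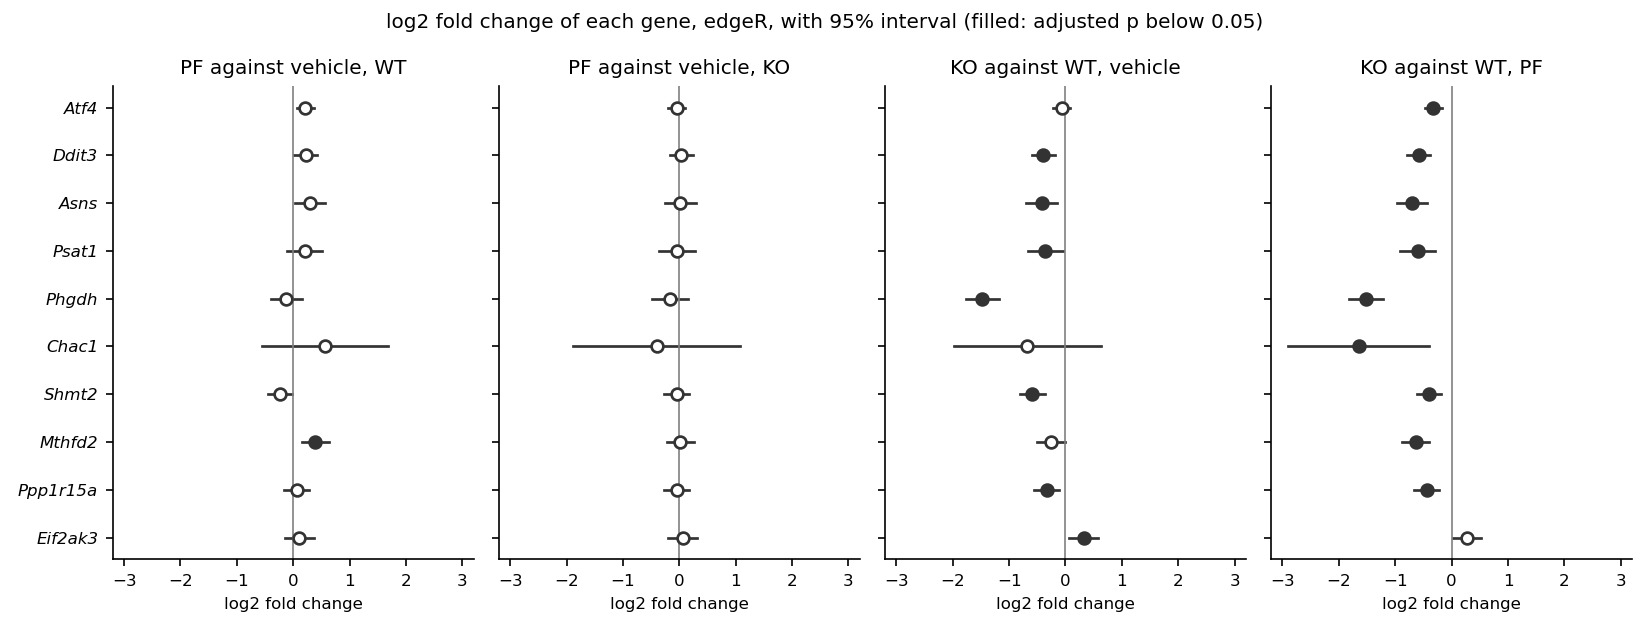
log2 fold changes (x axis) of the 10 genes in the 2 comparisons of PF with vehicle and the 2 comparisons of AMPKβ1-/- (KO) with WT, with 95% intervals. Filled circles have an edgeR adjusted p below 0.05: 1 with PF in WT, 0 with PF in AMPKβ1-/-, 7 between genotypes with vehicle and 9 with PF.

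The rest of the pathway was described with 6 lists of 98 tested genes. PF in WT BMDMs raised 16 of them and lowered 6, against 6.99% and 8.95% of all genes, and with the GC trend removed 7 were higher and 1 lower, against 2.96% and 3.9%. This count moved with single libraries, as did the share of all genes. It was 2 higher and 1 lower without WT vehicle library 1 (1.7% and 3.23% of all genes) or without WT PF library 2 (1.7% and 2.46%). It was 2 and 0 without WT PF library 3 (1.18% and 1.99%) and 6 and 3 without WT vehicle library 3 (2.38% and 4.02%). Without WT PF library 1 it was 21 and 12 (14.9% and 14.8%), and 4 and 0 when WT libraries alone were fitted (2.01% and 2%). In AMPKβ1-/- BMDMs 0 of 98 passed with edgeR or DESeq2 (0.0554% and 0.461% of all genes), and 2 had an unadjusted p below 0.05 (4.98% of all genes). The difference between responses passed for 0 of 98 with edgeR (0.416% of all genes) and 1 with DESeq2 (1.87%). An unadjusted p below 0.05 was found for 15, near the 14.3% of all genes. Between genotypes 30 genes were higher and 33 lower with vehicle, against 29.7% and 30% of all genes, and 21 were higher and 31 lower with PF, against 24.1% and 22.9%. With the GC trend removed these became 14 and 28 with vehicle (16.1% and 22.3% of all genes) and 11 and 33 with PF (18.1% and 23.8%). With library size alone they were 39 and 17 with vehicle (39.7% and 14.8%) and 28 and 20 with PF (31.8% and 12.6%). With PF they were 13 and 25 without WT PF library 1 (19% and 16.8% of all genes) and 14 and 26 without WT PF library 2 (20% and 18.5%). They were 13 and 23 without AMPKβ1-/- PF library 1 (18.8% and 17%), and 12 and 23 without AMPKβ1-/- PF library 3 (19.6% and 16.5%).

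**Figure D4:**
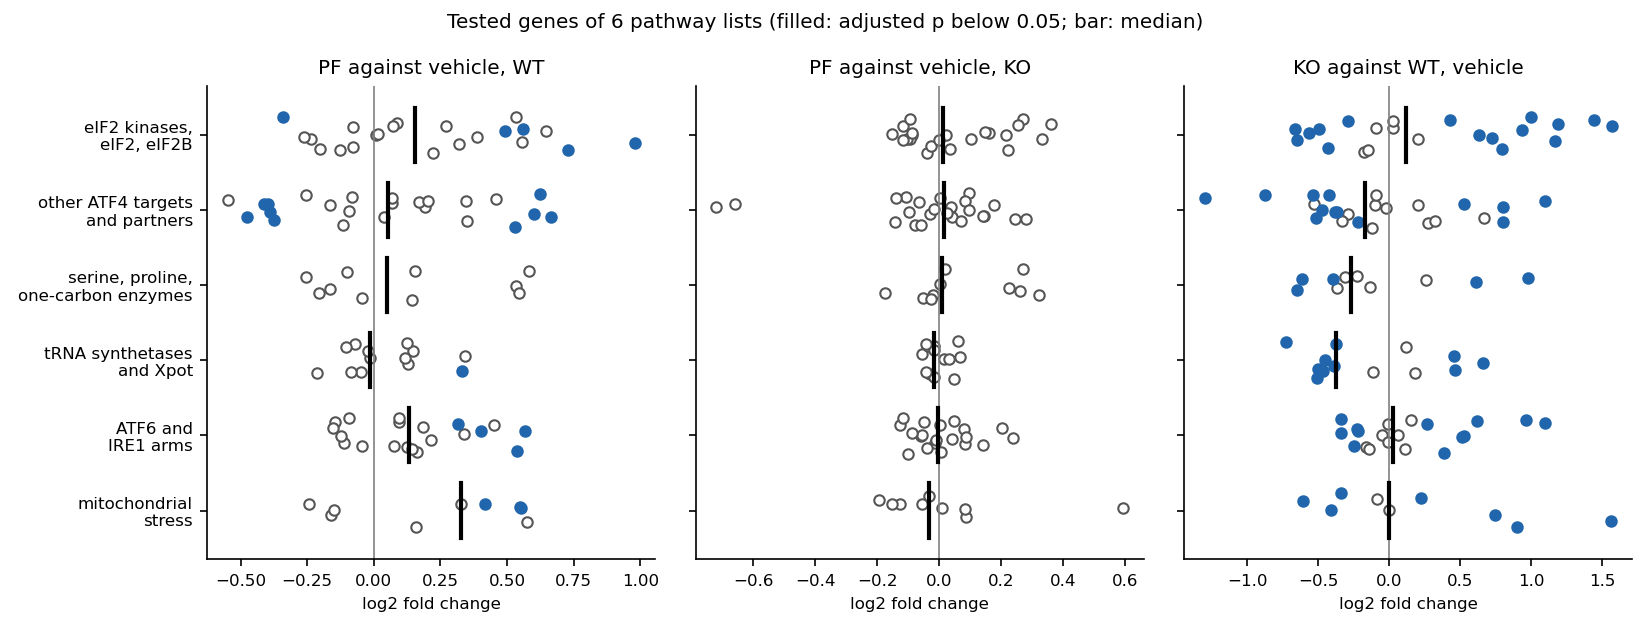
log2 fold changes (x axis, a range of its own in each panel) of the 98 tested genes in 6 lists (rows). Filled points have an edgeR adjusted p below 0.05 and bars are medians. Filled points number 22 with PF in WT, 0 with PF in AMPKβ1-/- (KO) and 63 between genotypes with vehicle.

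Among the other 24 tested ATF4 targets and partners, 4 rose and 5 fell with PF in WT (median log2 fold change 0.054), against 6.99% and 8.95% of all genes. Trib3, a pseudokinase that ATF4 and CHOP induce and that binds AKT, measured 10.5, 9.78 and 10.1 CPM in WT vehicle and 18.1, 16.9 and 13.2 CPM in WT PF libraries. All WT PF libraries were above, and the rise of 0.66 ± 0.16 (adjusted p = 0.0149) became 0.86 (adjusted p = 0.00103) with the GC trend removed. AMPKβ1-/- libraries of Trib3 held 5.74 to 7.95 CPM with vehicle and 6.53 to 8.46 CPM with PF, below every WT library, with a difference of -1.08 ± 0.16 with PF (adjusted p = 0.000101). Cebpg, a C/EBP partner of ATF4, rose by 0.53 (adjusted p = 0.0164), also with the trend removed (0.42, adjusted p = 0.0211). Ero1a, an oxidase of the endoplasmic reticulum, rose by 0.63 (adjusted p = 0.0112) but was at 0.23 (adjusted p = 0.187) with the trend removed. Among the falls were Herpud1, a component of protein degradation at the endoplasmic reticulum (-0.40, adjusted p = 0.0324, and -0.36, adjusted p = 0.0379, with the trend removed), and Pck2, the mitochondrial PEP carboxykinase (-0.41, adjusted p = 0.0102). Sesn2, a sestrin that restrains mTORC1, fell as well (-0.48, adjusted p = 0.0235). Neither Pck2 nor Sesn2 passed with the trend removed (adjusted p = 0.137 and 0.261). Of the 19 alternative settings for PF in WT, Trib3 passed in 18, Pck2 in 16, Cebpg, Ero1a and Sesn2 in 14 each, and Herpud1 in 13. Genes that ATF4 is known to induce thus lay on both sides.

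The same list between genotypes held 4 higher and 9 lower genes with vehicle (29.7% and 30% of all genes). With PF it held 4 higher and 6 lower (24.1% and 22.9%). Gdf15, a secreted stress cytokine induced by ATF4 and CHOP, measured 10.6, 8.12 and 9.15 CPM in WT vehicle and 4.65, 3.19 and 3.50 CPM in AMPKβ1-/- vehicle libraries, and 16.6, 13.9 and 11.6 CPM against 3.48, 5.57 and 4.55 CPM with PF. It was lower in every AMPKβ1-/- library. The log2 fold change was -1.30 ± 0.21 with vehicle (adjusted p = 0.000187) and -1.62 ± 0.20 with PF (adjusted p = 2.1e-05), and these were -0.90 and -1.44 with the trend removed. Pck2 was lower with vehicle (-0.88, adjusted p = 1.46e-05) and with PF (-0.48, adjusted p = 0.000734), and Atf5, a relative of ATF4, was lower with PF (-0.52, adjusted p = 0.000797). With the trend removed Pck2 was at -0.54 and -0.33, and Atf5 at -0.36. In the other direction, Cebpg was at 34.6 to 37.2 CPM in AMPKβ1-/- and 14.9 to 19.5 CPM in WT vehicle libraries (1.10 ± 0.13, adjusted p = 2.49e-05), and Jdp2, a partner that represses AP-1 sites, was higher by 0.94 with PF (adjusted p = 0.000557). Gdf15, Cebpg and Pck2 passed in each of the 19 alternatives under both treatments.

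Of 22 tested genes for eIF2 kinases, eIF2 and eIF2B, 4 rose and 1 fell with PF in WT (median 0.16), against 6.99% and 8.95% of all genes. Impact, an inhibitor of GCN2 activation, measured 5.13, 8.86 and 7.56 CPM in WT vehicle and 8.74, 14.6 and 19.3 CPM in WT PF libraries, which overlapped and spread widely. Its log2 fold change was 0.98 ± 0.25 (adjusted p = 0.0231) and 0.71 (adjusted p = 0.0335) with the GC trend removed, and it passed in 14 of 19 alternative settings. The eIF2 subunits Eif2s2 and Eif2s1 rose by 0.73 and 0.49, and Dnajc3, an inhibitor of PERK and PKR, by 0.56, but none of these 3 passed with the trend removed (adjusted p = 0.141, 0.624 and 0.222). Gcn1, the ribosomal partner of GCN2, fell by 0.34 and likewise did not pass (0.223). Between genotypes with vehicle 10 genes of this list were higher and 6 lower (29.7% and 30% of all genes). With the trend removed 3 were higher and 9 lower (16.1% and 22.3%). Eif2ak2, which encodes PKR, was among those that kept their direction, at 43.6 to 46.7 CPM in AMPKβ1-/- and 16.1 to 22.8 CPM in WT vehicle libraries (1.17 ± 0.17, adjusted p = 9.59e-05, and 0.51, adjusted p = 0.00216, with the trend removed). Impact was higher too (1.44 with vehicle, adjusted p = 0.000337). With PF 8 genes of this list were higher and 6 lower (24.1% and 22.9% of all genes). With the trend removed 3 were higher and 9 lower (18.1% and 23.8%). Ppp1cb (1.25), Eif2ak2 (0.88), Eif2s2 (0.82), Impact (0.68) and Dnajc3 (0.66) were higher with PF. With the trend removed Eif2ak2 (0.51, adjusted p = 0.00118) and Impact (0.57, adjusted p = 0.0097) passed, and Ppp1cb, Eif2s2 and Dnajc3 did not. The eIF2B subunit Eif2b2 was lower with PF (-0.64, adjusted p = 0.000171, and -0.41, adjusted p = 0.000245, with the trend removed).

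The 10 tested genes for other serine, glycine, proline and one-carbon enzymes held 0 calls with PF in WT by edgeR (15.9% of all genes). With vehicle 2 were higher and 3 lower in AMPKβ1-/- BMDMs (29.7% and 30% of all genes), and with PF 2 were lower (22.9%). Aldh18a1, the first enzyme of proline synthesis, was lower with vehicle (-0.65, adjusted p = 0.00148), and Gcat, which yields glycine in the breakdown of threonine, was lower with vehicle (-0.62, adjusted p = 0.00731) and with PF (-0.59, adjusted p = 0.0118). Tyms, the thymidylate synthase of dividing cells, was among the higher ones (0.61, adjusted p = 0.0292). With the trend removed Aldh18a1 and Tyms passed with vehicle, and Gcat passed with PF.

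Of 13 tRNA synthetase and tRNA export genes, 1 rose and 0 fell with PF in WT (6.99% and 8.95% of all genes). It was Tars for threonine (0.33, adjusted p = 0.0323), which did not pass with the trend removed. With vehicle 3 were higher and 7 lower in AMPKβ1-/- BMDMs (29.7% and 30% of all genes), with a median of -0.38. With the trend removed 1 was higher and 7 lower (16.1% and 22.3%). With PF 2 were higher and 6 lower (24.1% and 22.9%). Sars, for serine, measured 257, 219 and 213 CPM in WT and 139.8, 135 and 140.5 CPM in AMPKβ1-/- vehicle libraries, and every AMPKβ1-/- library was lower. Its difference was -0.73 ± 0.09 (adjusted p = 3.52e-05) with vehicle and -0.70 (adjusted p = 2.85e-05) with PF, and -0.53 and -0.59 with the trend removed. The synthetases for methionine (Mars1, -0.51), tryptophan (Wars, -0.51) and tyrosine (Yars, -0.46) were lower with vehicle, and those for cysteine (Cars, -0.55) and alanine (Aars, -0.49) were lower with PF. With the trend removed these stood, in that order, at -0.29, -0.30, -0.29, -0.32 and -0.31. Tars with vehicle (0.46) and the tRNA exporter Xpot with PF (0.38) were higher, at 0.33 and 0.23 with the trend removed.

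The other arms of the unfolded protein response, which run through ATF6 and IRE1, had 20 tested genes. Of these, 4 rose and 0 fell with PF in WT by edgeR (6.99% and 8.95% of all genes). They were the endoplasmic reticulum chaperones Hspa5 (BiP, 0.40), Hsp90b1 (0.57) and Dnajb9 (0.54) and the disulfide isomerase Pdia3 (0.32), and their adjusted p was 0.27 to 0.731 with the trend removed. Between genotypes with vehicle 7 were higher and 5 lower (29.7% and 30% of all genes). Dnajb9 was higher by 0.97 (adjusted p = 0.000154) and by 0.39 (adjusted p = 0.0192) with the trend removed, whereas Atf6 went from 0.38 to -0.52 and the chaperone Canx from 0.62 to -0.31. With PF 5 of the 20 genes were higher and 7 lower (24.1% and 22.9% of all genes). Hsp90b1 (0.76, adjusted p = 0.00215) and Dnajb9 (0.63, adjusted p = 0.00238) were higher. With the trend removed Dnajb9 passed (0.28, adjusted p = 0.0491), Hsp90b1 did not (adjusted p = 0.362), and Atf6 went from 0.38 to -0.33. Edem1, Creld2 and Manf were lower with PF (-0.37, -0.43 and -0.37), also with the trend removed.

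The mitochondrial stress list had 9 genes, which include the protease Oma1 and its substrate Dele1 that relay mitochondrial damage to HRI. Of these, 3 rose and 0 fell with PF in WT (6.99% and 8.95% of all genes). Hspd1, the mitochondrial chaperonin, rose by 0.55 (adjusted p = 0.0245) and by 0.59 (adjusted p = 0.038) with the trend removed, and passed in 15 of 19 alternative settings. With the trend removed Hspa9, a mitochondrial Hsp70, went from 0.42 to -0.047 and Clpx, the subunit that unfolds substrates of a protease, from 0.55 to 0.23. Between genotypes with vehicle 4 were higher and 3 lower (29.7% and 30% of all genes). Among them were Hspd1 (0.75, adjusted p = 0.000644) and Clpp (-0.61, adjusted p = 0.00231). With the trend removed Hspd1 passed (0.90, adjusted p = 0.000603) and Clpp did not (-0.20, adjusted p = 0.211). Dele1 was lower (-0.34, adjusted p = 0.0233), at -0.20 (adjusted p = 0.138) with the trend removed.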

How the data were processed

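RNA was measured in 12 libraries, 3 in each of 4 groups, and libraries were assigned to groups from the names of the count columns, which give genotype and treatment. The values deposited by the authors are estimated counts per gene, made with Salmon from reads that the authors trimmed with Trim Galore, and given as whole numbers without normalization. The authors used MultiQC for quality control and DESeq2 to test genes. The genome build and the versions were not given in the sources used here.

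The main test was the robust quasi-likelihood test of edgeR 4.0.16 in R 4.3.3 (TMM, filterByExpr by group). A single model with 4 group means covered the 12 libraries, with Benjamini-Hochberg adjustment over 10822 genes and contrasts for PF within each genotype, genotype within each treatment, and their interaction. The F statistic of each fold change gave its SE and 95% interval. No replicate libraries were identical, with chi-square values of 2.19 to 18.1 per gene. A count of 0 allows up to 3 counts, which covers counting error only. At these depths of 8935609 to 14358180 counts per library, 3 counts are 0.196 to 0.321 CPM. Genes were placed with GENCODE M21 (GRCm38). GC content was known for 10785 tested genes (99.7%), and its trend and that of length were fitted per library (natural splines, 5 degrees of freedom) and supplied to edgeR as offsets. The statistics were tested on simulated data with changes placed only in WT PF libraries and no GC trend. That test therefore does not cover broad genotype differences or a GC trend that follows the groups. The alternatives were DESeq2 1.42.0, its size factors, library size alone, no filter, fits to the groups compared, the GC and length offset, a replicate block and each library left out.

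The 10 genes and the lists were chosen with earlier results of these data known. All 10 genes were named. From each list, up to 6 genes that passed with PF or in the interaction were named by smallest adjusted p, and up to 6 that passed between genotypes by largest fold, though not each gene this rule picks is reported here. For Atf4, the 5 genes with the most similar levels were taken.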

Additional observations from a re-analysis of the deposited data

How the results depend on the processing

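Over 19 alternatives (18 for the interaction), Phgdh with vehicle and Asns, Atf4, Ddit3, Mthfd2, Phgdh, Ppp1r15a and Psat1 with PF kept their calls between genotypes in each. Mthfd2 with PF in WT lost its call in 6. Of 937 results for the 10 genes under an alternative, 856 kept their direction and side of the threshold, 40 lost their call, 17 gained one and 24 changed sign. The number of members called with PF in WT (main 1) was 2 with DESeq2's size factors (15.2% of all genes passed), 4 with library size alone (15.1%), 2 with DESeq2 (19.9%), 0 when WT libraries alone were fitted (4%), 2 with the GC and length trend removed (6.86%), and 0 to 3 with 1 library left out. It was 0 when vehicle library 1 (4.93%) or 3 (6.4%), or PF library 2 (4.15%) or 3 (3.17%), of the WT group was dropped, 3 without WT PF library 1 (29.7%), and 2 without AMPKβ1-/- vehicle library 1 (18.6%). The interaction had 1 call with the trend removed (main 0; 1.27% of all genes). Between genotypes with vehicle (main 7) there were 3 with library size alone (54.5%) and 4 to 7 with 1 library left out, 4 without AMPKβ1-/- vehicle library 2 (48.4%). The cause of these changes was not tested.

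The sign of a log2 fold change reversed with the GC and length trend removed for Phgdh (0.018) and Hspa9 (-0.047) with PF in WT, and Shmt2 (0.0012) with PF in AMPKβ1-/- BMDMs. Between genotypes with vehicle it reversed for Atf4 (0.25, and 0.14 with library size alone), Dnajc3 (-0.014), Slc38a2 (-0.079), Eprs (-0.16), Canx (-0.31) and Atf6 (-0.52), and with PF for Eif2s2 (-0.22), Dnajc3 (-0.17), Atf6 (-0.33) and Clpx (-0.047). Leaving out 1 library gave values on both sides of 0 for Ppp1r15a with PF in WT (-0.016 to 0.13). With PF in AMPKβ1-/- BMDMs it did so for Ddit3 (-0.00088 to 0.085), Asns (-0.026 to 0.10), Psat1 (-0.13 to 0.052), Chac1 (-0.86 to 0.089), Mthfd2 (-0.043 to 0.11), Ppp1r15a (-0.096 to 0.0031) and Eif2ak3 (-0.028 to 0.15), and in the interaction for Phgdh (-0.069 to 0.16) and Eif2ak3 (-0.040 to 0.18). None of these results from leaving out 1 library concerns a value that passed the test.

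Same-numbered libraries of different groups deviated together with correlations of -0.17 to 0.32, and libraries of unequal number with -0.39 to 0.32. Equal numbers were not treated as pairs in the main test, but 3 libraries per group are too few for this check to exclude pairing. With the replicate number as a block the members called were 1 with PF in WT (18.3% of all genes), 0 with PF in AMPKβ1-/- (0%), 0 in the interaction (0.434%), 6 between genotypes with vehicle (59.6%) and 10 with PF (47.9%). In fits to the groups compared alone, Chac1 was too low to be tested where AMPKβ1-/- libraries took part. Counts of 2 to 23 limit Chac1, and the depth of the other 9 genes was 77 counts or more in each library.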

Other observations

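The 5 genes whose log2 CPM, centred on the group means, followed that of Atf4 most closely over the 12 libraries were Pidd1 (Pearson r = 0.95), Pfas (0.95), Adam33 (0.94), Abhd1 (0.94) and Anks3 (0.93). They were picked as the highest among the 10822 tested genes, so their r values are high by selection. None of the 10 pathway genes and none of the 98 tested genes on the 6 lists was among them. These are so few of all tested genes that their absence from the 5 is uninformative. The values describe 12 libraries that share differences in depth and GC trend.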
